A study of Homo sapiens with 3 samples.

Results

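The regions described here are the p300/CBP peaks around 5 genes of the endothelin system, EDN1, EDN2, EDNRA, EDNRB and ECE1, in MDA-MB-231 cells. A peak was taken when its centre lay within 250 kb of the transcription start site (TSS) of one of these genes on the human assembly hg19. This gave 92 of the 82901 siCTL peaks and 40 of the 39320 siFra-1 peaks. MDA-MB-231 is an established human triple-negative breast cancer line of the basal b type. Cells received a control siRNA (siCTL) or a pool of 3 siRNAs against Fra-1 (siFra-1) for 72 h, with 4.5 nM of siRNA in total in either condition. They were fixed for 7 min in 1% paraformaldehyde and immunoprecipitated with an antibody to p300/CBP. Each condition has 1 library, made from pooled immunoprecipitations, so the conditions cannot be tested against each other and no p-value is given. The lists give where each peak begins and ends but not its height, and the depth behind it is unknown. No RNA or protein value was analysed here, so the lowering of Fra-1 was not checked in these libraries.

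Endothelins are small peptides best known as strong constrictors of blood vessels, and tumour cells also secrete them. EDN1 and EDN2 encode peptide precursors, ECE1 encodes the membrane metallopeptidase that cuts the inactive big endothelin to its active form, and EDNRA and EDNRB encode the G protein-coupled receptors that bind it. p300 and CBP are related lysine acetyltransferases that are recruited to active enhancers and promoters by transcription factors. Fra-1, encoded by FOSL1, pairs with a Jun protein to form AP-1, which binds the motif TGAGTCA. The comparison addressed whether the places where p300/CBP was found depended on Fra-1.

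The sequences at EDN1 are shown first, because this gene had the only peak centred within 1.5 kb of a TSS of the 5 genes (a siCTL peak at -1547.5 bp from the EDN2 TSS fell just outside), 3 sites that kept a peak in both conditions, and a siCTL peak that held the AP-1 motif. They are hg19 plus-strand bases, 5′ to 3′. Capitals mark matches, on either strand, to motifs known for factors that bind enhancers. For AP-1 this was TGANTCA, the consensus with a free middle base. For the CRE, the element that CREB and ATF factors bind, it was TGACGTCA. For TEAD factors, the partners of YAP and TAZ, the letters searched were GGAATG. For RUNX factors the letters searched on both strands were TGTGGT. For GATA factors, which act in endothelial cells among others, they were AGATAA. For the hypoxia element, bound by the HIF factors when oxygen is low, they were ACGTG. In the promoter peak, capitals also mark an AP-1 variant, TGACTAA, that was added after the sequence had been read. The variant is not capitalised in the other sequences.
EDN1 promoter, siCTL peak of 100 bp (chr6:12290402-12290501): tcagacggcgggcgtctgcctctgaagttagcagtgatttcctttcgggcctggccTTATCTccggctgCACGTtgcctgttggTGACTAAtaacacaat
EDN1 upstream shared site in HIVEP1 (chr6:12148702-12149001): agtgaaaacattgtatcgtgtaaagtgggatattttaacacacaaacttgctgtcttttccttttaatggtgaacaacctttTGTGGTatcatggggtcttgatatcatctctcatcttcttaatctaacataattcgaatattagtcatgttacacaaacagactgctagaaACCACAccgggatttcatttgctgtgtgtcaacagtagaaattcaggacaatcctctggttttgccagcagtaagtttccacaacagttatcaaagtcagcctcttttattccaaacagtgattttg
EDN1 upstream shared site between genes (chr6:12234052-12234201): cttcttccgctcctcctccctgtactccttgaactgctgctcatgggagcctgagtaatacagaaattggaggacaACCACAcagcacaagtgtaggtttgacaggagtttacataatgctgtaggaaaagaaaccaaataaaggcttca
EDN1 downstream shared site (chr6:12348952-12349151): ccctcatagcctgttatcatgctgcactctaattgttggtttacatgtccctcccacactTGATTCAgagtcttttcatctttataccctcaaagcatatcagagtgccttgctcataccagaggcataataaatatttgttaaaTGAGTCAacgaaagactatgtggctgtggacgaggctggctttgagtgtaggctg
EDN1 downstream siCTL peak of 150 bp (chr6:12457502-12457651): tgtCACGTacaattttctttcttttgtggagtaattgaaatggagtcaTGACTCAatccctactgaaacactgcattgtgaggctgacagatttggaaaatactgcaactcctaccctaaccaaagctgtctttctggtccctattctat

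At EDN2, EDNRB and ECE1 the shared sites, and at EDNRA 1 wide siFra-1 peak, are printed with the same capitals. The wide peak near EDNRA was chosen after its value was seen.
EDN2 shared site, the 300 bases that span both siCTL peaks (chr1:42149702-42150001): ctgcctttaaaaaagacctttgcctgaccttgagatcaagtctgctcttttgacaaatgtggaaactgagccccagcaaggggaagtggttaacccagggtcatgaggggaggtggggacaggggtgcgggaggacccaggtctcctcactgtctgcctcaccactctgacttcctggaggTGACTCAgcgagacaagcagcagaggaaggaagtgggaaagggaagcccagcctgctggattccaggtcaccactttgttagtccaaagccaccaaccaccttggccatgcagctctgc
EDNRA siFra-1 peak without overlap, central 300 bases (chr4:148499252-148499551): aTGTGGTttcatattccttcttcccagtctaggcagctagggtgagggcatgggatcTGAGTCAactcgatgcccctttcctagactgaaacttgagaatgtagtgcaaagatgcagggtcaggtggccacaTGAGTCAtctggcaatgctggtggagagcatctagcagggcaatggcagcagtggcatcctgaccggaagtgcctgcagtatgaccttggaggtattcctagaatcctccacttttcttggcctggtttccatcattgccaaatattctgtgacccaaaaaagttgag
EDNRB shared site (chr13:78503102-78503301): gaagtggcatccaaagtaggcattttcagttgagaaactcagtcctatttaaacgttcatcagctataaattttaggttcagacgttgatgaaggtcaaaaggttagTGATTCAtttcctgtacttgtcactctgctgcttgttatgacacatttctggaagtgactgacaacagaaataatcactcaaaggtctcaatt
ECE1 first intronic shared site (chr1:21660952-21661151): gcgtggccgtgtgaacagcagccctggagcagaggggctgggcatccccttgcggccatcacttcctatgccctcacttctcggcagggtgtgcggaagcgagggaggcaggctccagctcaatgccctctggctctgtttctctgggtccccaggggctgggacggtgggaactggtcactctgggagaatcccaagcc
ECE1 second intronic shared site (chr1:21651102-21651301): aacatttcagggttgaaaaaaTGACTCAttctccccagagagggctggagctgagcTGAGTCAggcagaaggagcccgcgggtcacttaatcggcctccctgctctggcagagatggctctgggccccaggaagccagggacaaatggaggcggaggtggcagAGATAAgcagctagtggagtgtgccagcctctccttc
ECE1 last intronic shared site (chr1:21588352-21588501): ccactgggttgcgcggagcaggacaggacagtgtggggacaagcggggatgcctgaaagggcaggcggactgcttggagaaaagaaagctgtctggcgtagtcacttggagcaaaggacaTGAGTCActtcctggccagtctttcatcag

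Around EDN1 (ENSG00000078401, chr6:12290594-12297427, plus strand) 35 siCTL and 16 siFra-1 peaks were found. The siFra-1 number was 0.457 times the siCTL number, with a 95% Clopper-Pearson interval of 0.236 to 0.848, beside 0.474 over the whole lists. All intervals given here cover counting error only. The number around EDN1 was high for a gene in both lists, exceeding that of 87.8% of the 20162 protein-coding genes in siCTL and 84.6% in siFra-1. The window holds no TSS of another protein-coding gene, although its upstream end lies in HIVEP1. Of the siCTL peaks 28 lay between genes and 7 in HIVEP1 introns, and of the siFra-1 peaks 13 lay between genes, 2 in HIVEP1 introns and 1 in an exon of EDN1 itself.

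At the EDN1 promoter the siCTL list held a peak of 100 bp, chr6:12290402-12290501, centred 0.1 kb upstream of the TSS, and no siFra-1 peak overlapped it. The nearest siFra-1 peak lay 1.85 kb away. Lack of overlap was usual at this width, since 3.79% of all siCTL peaks of 100 bp were overlapped by a siFra-1 peak. A siCTL peak centred within 1.5 kb of the TSS was present at 15.6% of protein-coding genes, and a siFra-1 peak at 8.94%. The EDN1 promoter is known for AP-1, GATA and hypoxia-responsive control, and the peak held each kind of letters, counted from the TSS on the plus strand. The GATA match was centred at -134, the hypoxia match at -121 and the AP-1 variant at -105, and the first pair were matches on the minus strand. Among siCTL peaks of 100 bp, the GATA letters were in 5.95%, the hypoxia letters in 4.67% and the AP-1 variant in 1.15%. Over the 300 bases from 250 before to 50 after each TSS, these letters were in 8.79%, 22.7% and 1.57% of protein-coding promoters. The consensus TGAGTCA was not in these 300 bases at any of the 5 genes, beside 3.97% of all such promoters.

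Upstream of the promoter, 17 further siCTL peaks were mapped. The 7 in HIVEP1 introns were centred 245.7, 198.4, 176.6, 173.2, 161.9, 141.7 and 138.4 kb before the TSS, and the one at 141.7 kb was 400 bp wide while the others were 100 bp. Between HIVEP1 and EDN1 the siCTL peaks lay at 105.1, 74.6, 70.0, 69.3, 56.5, 55.7, 55.6, 31.5, 23.7 and 2.6 kb. Those at 69.3 and 56.5 kb were 150 bp wide and the others 100 bp. The siFra-1 list held 9 upstream peaks, of 100 bp at 155.8, 105.0, 84.1, 56.5, 47.6 and 3.3 kb, of 150 bp at 94.1 and 2.1 kb, and of 300 bp at 141.7 kb. Only the peaks at 141.7 and 56.5 kb overlapped between the lists.

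Downstream, the siCTL list held 17 peaks. Those at 28.5, 58.4, 61.2, 71.4, 80.9, 95.7, 113.1, 130.7, 137.3, 173.5, 178.0, 187.6, 202.1 and 238.1 kb were 100 bp wide, and those at 79.8, 167.0 and 193.6 kb were 150 bp wide. The siFra-1 list held 7 downstream peaks, of 100 bp at 34.1, 114.2 and 173.2 kb, of 150 bp at 33.8 and 47.8 kb, and of 200 bp at 6.1 and 58.5 kb. A single downstream site was in both lists, where the siCTL peak at 58.4 kb lay inside the siFra-1 peak at 58.5 kb. Within 100 kb of the EDN1 TSS no peak of either list was wider than 200 bp, but in the whole window the site in HIVEP1 reached 400 bp in siCTL and 300 bp in siFra-1.

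**Figure D1:**
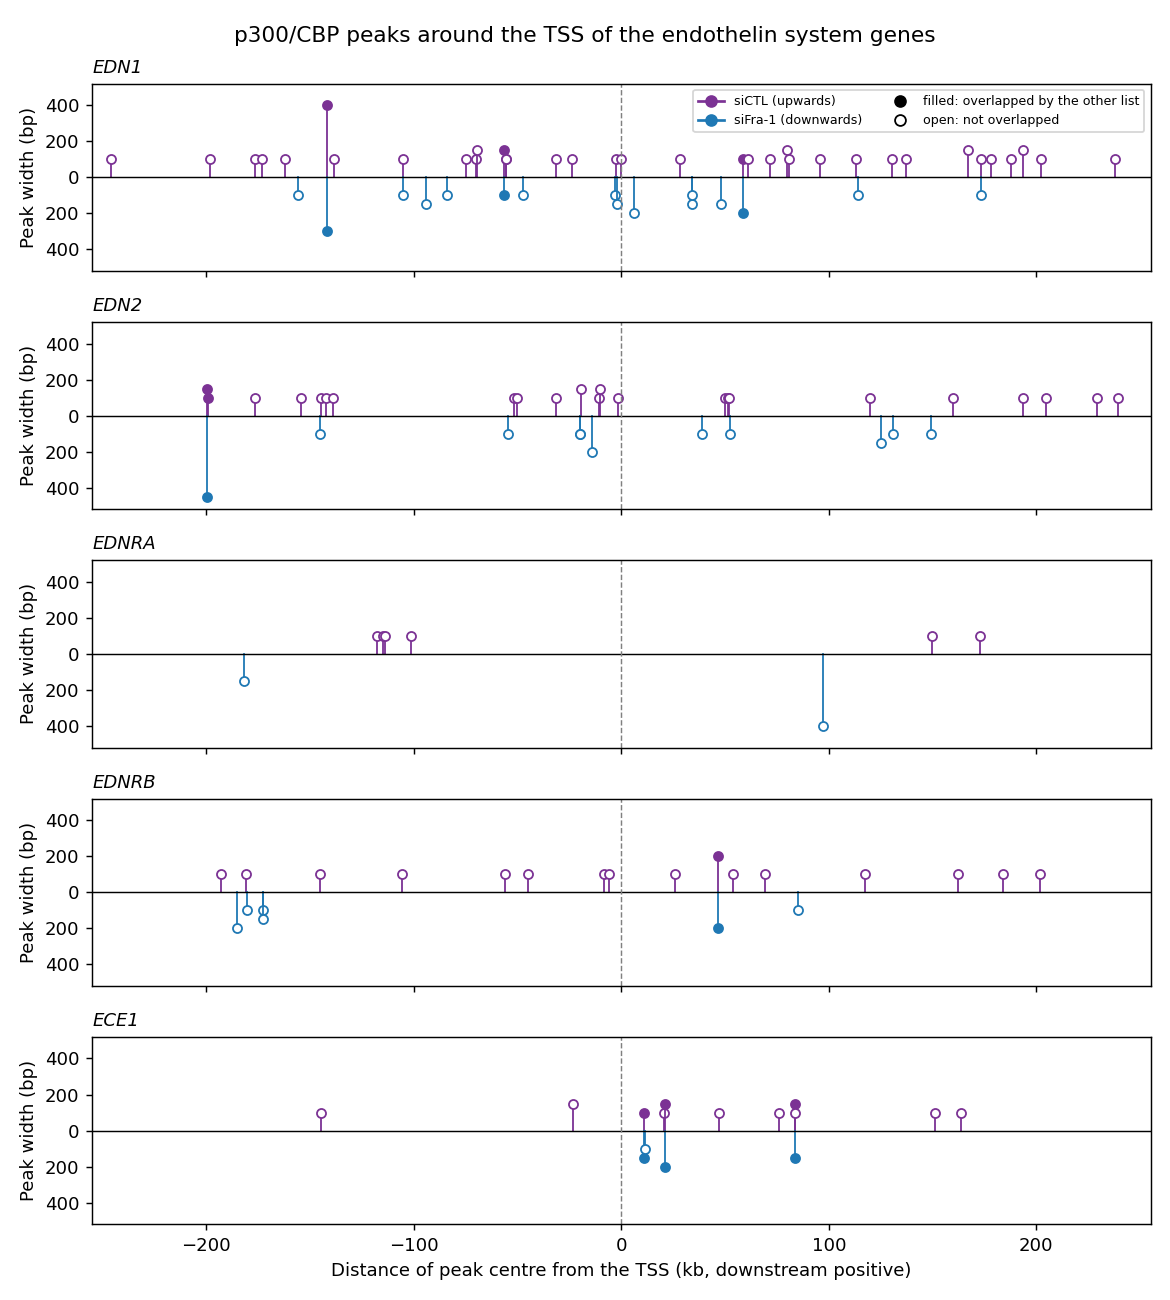
Peaks around the TSS of the 5 endothelin system genes, with the distance of the peak centre from the TSS in kb (downstream positive) against peak width in bp. siCTL peaks (purple) point up and siFra-1 peaks (blue) point down, and filled circles mark peaks overlapped by the other list. EDN1 has the most peaks, 35 and 16, and EDNRA has a siFra-1 peak of 400 bp at 97.3 kb with no siCTL peak opposite it. The 1 shared site that is not reported is left out of the drawing.

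The 3 shared EDN1 sites did not change width in one direction. The intronic HIVEP1 site, chr6:12148702-12149101, was 400 bp wide in siCTL and 300 bp in siFra-1. Its sequence is printed for the 300 bp of the siFra-1 peak only. The site at chr6:12234052-12234201 was 150 bp wide in siCTL and 100 bp in siFra-1. The downstream site, chr6:12348952-12349151, was 100 bp wide in siCTL and 200 bp in siFra-1, and the added bases hold its TGAGTCA while the bases common to both peaks hold TGATTCA. The upstream sites held RUNX letters and no TGANTCA. The HIVEP1 site also held TTAGTCA, which is the AP-1 variant TGACTAA on the minus strand and is not capitalised there.

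At EDN1, sharing was seen for 3 of 35 peaks in siCTL (8.57%, with 2.96 to 22.4% as the 95% Wilson interval) and for 3 of 16 in siFra-1 (18.8%, 6.59 to 43.0%), beside 9.56% and 19.1% of the whole lists. Several unshared peaks were close neighbours. The siCTL peak 105.1 kb upstream and the siFra-1 peak 105.0 kb upstream abutted with no base between them, the siCTL peak at 173.5 kb and the siFra-1 peak at 173.2 kb downstream were 0.15 kb apart, and the siCTL peak 2.6 kb upstream lay 0.4 kb from one siFra-1 peak and 0.55 kb from another. With peaks up to 1 kb apart counted as shared, 9 siCTL and 8 siFra-1 peaks around EDN1 had a partner, beside 16.8% and 34.6% of the whole lists.

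Within 50 kb of the TSS there were 5 peaks in siCTL and 7 in siFra-1, giving 1.4 with an interval of 0.382 to 5.59 that also holds the 0.457 of the whole window. The 50 kb window was added after the data were seen. More siFra-1 than siCTL peaks within 50 kb were found at 10.1% of protein-coding genes. Between 50 and 100 kb the numbers were 12 and 4, between 100 and 150 kb 6 and 3, between 150 and 200 kb 9 and 2, and beyond 200 kb 3 and 0.

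A siFra-1 peak of 200 bp, chr6:12296552-12296751, lay in an EDN1 exon 6.1 kb after the TSS, with 0 bases in coding sequence. It held TGACTCA, which is TGAGTCA on the minus strand, at chr6:12296666-12296672 and a TEAD match, and the nearest siCTL peak was 6.05 kb away. In the siCTL list, the peak of 150 bp 167.0 kb downstream, chr6:12457502-12457651, held TGACTCA, and the nearest siFra-1 peak was 6.1 kb away. With the 200 bp around each peak centre searched, TGAGTCA was near 2 of 35 siCTL peaks at EDN1 (167.0 and 202.1 kb downstream) and 4 of 16 siFra-1 peaks (105.0 kb upstream, and 6.1, 58.5 and 114.2 kb downstream). The shares were 5.71% (1.58 to 18.6%) and 25.0% (10.2 to 49.5%), beside 6.15% and 9.08% of the whole lists. The siCTL interval holds the share of its list and the siFra-1 interval begins just above it. Within the peaks themselves TGAGTCA was in only 1 siCTL and 2 siFra-1 peaks. At the peaks 202.1 kb downstream in siCTL, and 105.0 kb upstream and 114.2 kb downstream in siFra-1, it lay outside the peak.

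The study listed 6 regions that contact the EDN1 promoter in a separate experiment, and 2 of them lie in the 250 kb window. These 6 regions held 11 peaks of siCTL and 10 of siFra-1, giving 0.909 with an interval of 0.346 to 2.36 that also holds the 0.474 of the whole lists. In these regions 5 peaks of each list were shared, beside 9.56% of siCTL and 19.1% of siFra-1 peaks in the whole lists. The shared siCTL peaks there were 150 to 500 bp wide, and wider peaks were more often shared in the whole lists too. The shared sites at 141.7 and 56.5 kb upstream were both in such regions. Beyond the window, the regions held shared sites of 350 bp in siCTL and 650 bp in siFra-1 at -640 kb, of 500 and 700 bp at -637 kb, and of 350 and 450 bp at 302.4 kb. A siFra-1 peak of 350 bp at -676.4 kb had no siCTL overlap. The study itself noted increased p300/CBP signal in siFra-1 cells at EDN1 enhancers in such regions. Peak numbers do not measure signal, so these counts cannot be set against it.

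EDN2 (ENSG00000127129, chr1:41944446-41950354, minus strand) encodes a second endothelin. In its window lay 23 peaks in siCTL and 11 in siFra-1 (ratio 0.478, interval 0.210 to 1.02). The TSSs of SCMH1, FOXO6 and a gene given only as ENSG00000284895 lie in the same window, and EDN2 was the nearest protein-coding TSS for 10 of the siCTL and 6 of the siFra-1 peaks. The siCTL peak nearest to the promoter was 100 bp wide and centred at -1547.5 bp from the TSS, chr1:41951852-41951951, and held the hypoxia letters. The nearest siFra-1 peak was 200 bp wide and lay 14.3 kb upstream, chr1:41964552-41964751.

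In an intron of HIVEP3, 199.5 kb upstream of EDN2, siCTL peaks of 100 and 150 bp lay under a single siFra-1 peak of 450 bp, chr1:42149652-42150101, which held TGACTCA. ENSG00000284895 was the nearest protein-coding TSS there, 55.4 kb away. Another pair of siCTL peaks of 150 bp lay 19.5 kb upstream (chr1:41969802-41969951) and 10.5 kb upstream (chr1:41960752-41960901) with no siFra-1 overlap. A siFra-1 peak of 100 bp stood 0.05 kb from the first of these. In the siFra-1 list a peak of 150 bp at 125.2 kb downstream, chr1:41825052-41825201, had no siCTL overlap, and its nearest protein-coding TSS was that of FOXO6. Of peaks of 150 bp in the whole lists, 17.8% in siCTL and 23.7% in siFra-1 were shared.

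EDNRA (ENSG00000151617, chr4:148402069-148466106, plus strand), the receptor through which endothelin constricts vessels, had the fewest peaks of the 5 genes, with 7 in siCTL and 3 in siFra-1 (ratio 0.429, interval 0.0715 to 1.88). Fewer siCTL peaks were found at 16.9% of protein-coding genes. No siCTL peak lay within 100 kb of its TSS, and the nearest was 100 bp wide and 101.4 kb upstream, chr4:148300602-148300701. All 3 siFra-1 peaks were wider than 100 bp. A siFra-1 peak of 150 bp without overlap lay 181.6 kb upstream, chr4:148220352-148220501. Of all siFra-1 peaks of 150 bp, 23.7% were shared.

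The widest siFra-1 peak near EDNRA, 400 bp at chr4:148499202-148499601, lay in an intron of LINC02507 97.3 kb downstream and had no siCTL overlap. Its central bases hold TGAGTCA at 2 places, chr4:148499309-148499315 and chr4:148499384-148499390. The nearest siCTL peak was 51.9 kb away. Of all siFra-1 peaks of at least 250 bp, 31.8% had no siCTL overlap. The nearest protein-coding TSS was that of TMEM184C, 39.1 kb away, not that of EDNRA.

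EDNRB (ENSG00000136160, chr13:78469616-78549664, minus strand) encodes the receptor known for endothelial relaxation and clearance of the peptide. Its window held 16 siCTL and 6 siFra-1 peaks (ratio 0.375, interval 0.120 to 1.01). No other protein-coding TSS lies in it, and 13 of the 16 siCTL and 5 of the 6 siFra-1 peaks lay in introns, mostly of the non-coding gene OBI1-AS1. The shared site, chr13:78503102-78503301, was 200 bp wide in both conditions and held TGATTCA. It lay in an intron of EDNRB 46.5 kb after the TSS of the gene record, and 10.2 kb upstream of the TSS of the canonical transcript, which starts 56.7 kb further along the gene.

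The siCTL peak nearest to the EDNRB TSS of the gene record was 100 bp wide and 6.1 kb upstream, chr13:78555752-78555851, in an exon of LINC01069. The nearest siFra-1 peak was the shared one. Nearest to the canonical TSS was another siCTL peak of 100 bp, chr13:78495902-78496001. Other siFra-1 peaks of at least 150 bp lay far upstream. One of 200 bp was centred at 185.4 kb, chr13:78735002-78735201, and held RUNX letters at 2 places. One of 150 bp was centred at 172.5 kb, chr13:78722102-78722251, and held an AP-1 match on one of the strands. Neither overlapped a siCTL peak. In the whole siFra-1 list 38.7% of peaks of 200 bp and 23.7% of peaks of 150 bp did.

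ECE1 (ENSG00000117298, chr1:21543740-21672065, minus strand) had 11 peaks in siCTL and 4 in siFra-1 (ratio 0.364, interval 0.0844 to 1.23). All 4 siFra-1 peaks lay in introns of ECE1. Of these, 3 overlapped a siCTL peak (75%, interval 30.1 to 95.4%), beside 19.1% of the whole list. They were 150 or 200 bp wide, widths at which 23.7% and 38.7% of the siFra-1 list were shared. Of the 11 siCTL peaks 3 were shared (27.3%, 9.75 to 56.6%), beside 9.56% of the list. The fourth siFra-1 peak, 100 bp at 11.3 kb, stood 0.2 kb from a siCTL peak. The first shared site, chr1:21660952-21661151 at 11 kb, held the peak nearest to the TSS of the gene record in each list. It was 100 bp wide in siCTL and 150 bp in siFra-1. The second, chr1:21651102-21651301 at 20.9 kb, was 150 and 200 bp wide and held an AP-1 match at 2 places, TGACTCA and TGAGTCA. The third, chr1:21588352-21588501 at 83.6 kb, was 150 bp wide in both and held TGAGTCA. The canonical ECE1 transcript starts 55.1 kb further along the gene, so the third site lies 28.5 kb after that TSS. The siCTL peak nearest to the canonical TSS was 100 bp wide and unshared, chr1:21625002-21625101.

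Among the remaining ECE1 peaks, a siCTL peak of 150 bp lay 23.5 kb upstream, chr1:21695502-21695651, 34.4 kb from any siFra-1 peak. siCTL peaks of 100 bp stood 0.05 kb from the siFra-1 peaks of the second and the third site, and the one at the second site, chr1:21651352-21651451, held an AP-1 match of its own. ECE1 shares its window with the TSSs of EIF4G3, NBPF3, ALPL and ENSG00000289715, and it was the nearest protein-coding TSS for 8 of 11 siCTL and 4 of 4 siFra-1 peaks.

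**Figure D2:**
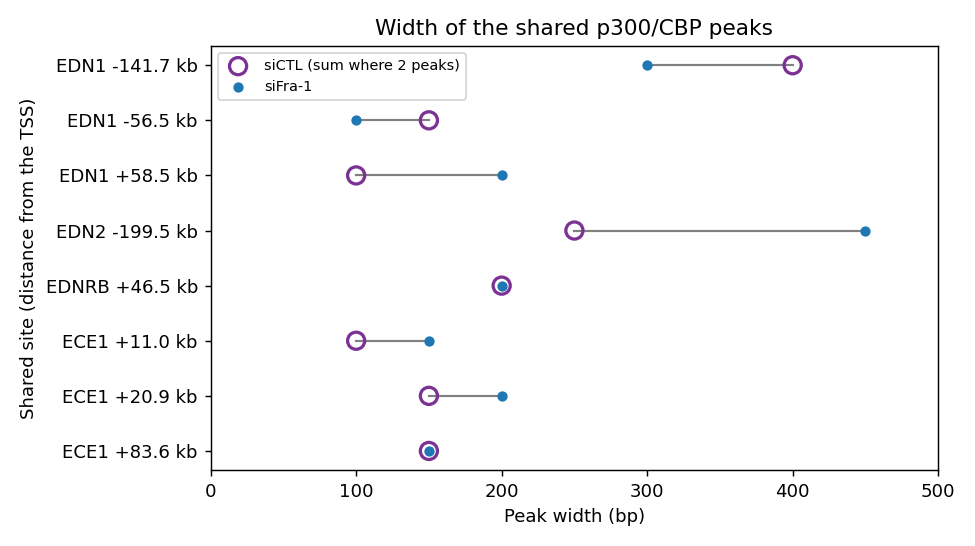
Peak width in bp for siCTL (open circle) and siFra-1 (filled circle) peaks at 8 of the 9 shared sites, named by gene and distance from the TSS, with 1 library per condition. Where 2 siCTL peaks lay under a siFra-1 peak their widths were added. The siFra-1 peak was wider at 4 of these sites, equal at 2 and narrower at 2, both of the latter at EDN1.

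Over the 5 genes, 92 siCTL and 40 siFra-1 peaks gave a ratio of 0.435 with an interval of 0.292 to 0.637, which holds the 0.474 of the whole lists. The number was lower in siFra-1 at each of the 5 genes, as it was at 92.6% of all protein-coding genes. The median protein-coding gene had 16 siCTL and 7 siFra-1 peaks. The lower number lay in the narrowest peaks, since there were 78 siCTL and 21 siFra-1 peaks of 100 bp, the smallest width in the lists. Their shares were 84.8% of the siCTL peaks, beside 83.4% of the whole list, and 52.5% of the siFra-1 peaks, beside 69.9%.

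Of peaks of 150 bp or more, 14 were in siCTL and 19 in siFra-1. The numbers were 6 and 7 at EDN1, 3 and 3 at EDN2, 1 and 3 at EDNRA, 1 and 3 at EDNRB, and 3 and 3 at ECE1. EDN1, EDNRA and EDNRB thus had more such peaks in siFra-1, as did 23.9% of protein-coding genes. Mean width was 111 bp in siCTL and 152.5 bp in siFra-1, and the peaks covered 10.25 and 6.1 kb. Over the whole lists 82901 siCTL peaks covered 9.96 Mb and 39320 siFra-1 peaks covered 6.29 Mb, so siFra-1 peaks were wider on average there too.

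**Figure D3:**
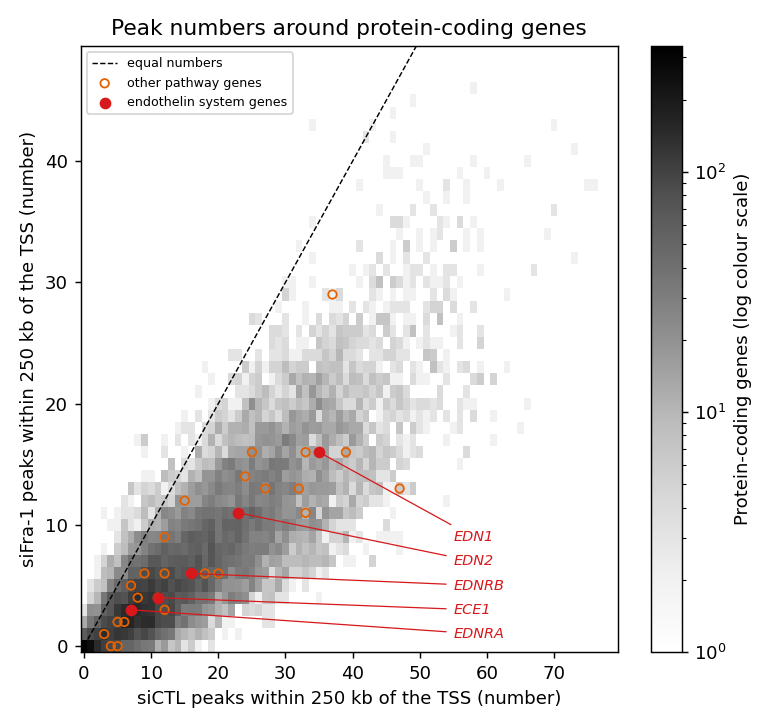
Numbers of siCTL (x axis) and siFra-1 (y axis) peaks within 250 kb of the TSS of protein-coding genes, with the number of genes per cell in grey on a log colour scale; 41 of 20162 genes lie beyond the axes. The 5 endothelin system genes (red) and the 24 other pathway genes (orange) lie below the line of equal numbers.

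Across the 5 genes, 10 of 92 peaks were shared in siCTL (10.9%, interval 6.01 to 18.9%) and 9 of 40 in siFra-1 (22.5%, 12.3 to 37.5%), beside 9.56% and 19.1% of the whole lists. Both intervals hold the value of the whole list. Sharing went with width in the lists as a whole. It was 3.79% for siCTL peaks of 100 bp, 17.8% at 150 bp, 37.0% at 200 bp and 85.0% at 250 bp or more, and 6.56%, 23.7%, 38.7% and 68.2% for siFra-1 peaks of these widths. At the 8 shared sites described above the siFra-1 peak was wider at 4, equal at 2 and narrower at 2. The EDN2 site, 1 of the 4 wider ones, had 2 siCTL peaks whose widths were added. It is therefore not a pair of 1 siCTL and 1 siFra-1 peak. Among the 6524 overlapping pairs of that kind in the lists the siFra-1 peak was wider in 50.7%, equal in 25.0% and narrower in 24.3%.

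The AP-1 motif TGAGTCA, on either strand in the 200 bp around the peak centre, was found at 8 of the 92 siCTL peaks (8.70%, 4.47 to 16.2%). In siFra-1 it was found at 11 of 40 (27.5%, 16.1 to 42.8%). In the whole lists it was at 6.15% and 9.08%. The siCTL interval holds the share of its list, and the siFra-1 interval lies above it. Among siFra-1 peaks over 100 bp wide it was at 8 of 19 (42.1%, 23.1 to 63.7%), beside 17.6% of the list, and among those of 100 bp at 3 of 21 (14.3%, 4.98 to 34.6%), beside 5.43%. By sharing, it was at 4 of 9 shared siFra-1 peaks (44.4%, 18.9 to 73.3%), beside 22.8% of the list. Of the unshared siFra-1 peaks it was at 7 of 31 (22.6%, 11.4 to 39.8%), beside 5.83% of the unshared peaks of the list. The intervals of the shared siFra-1 peaks and of those of 100 bp hold the values of the list. Of the siCTL peaks it was at 4 of 78 of 100 bp (list 4.38%) and 4 of 14 wider ones (list 15.0%). Shared siCTL peaks held it at 3 of 10 (list 22.2%) and unshared ones at 5 of 82 (list 4.46%). The siFra-1 peaks with the motif came from each of the 5 genes, with 4 at EDN1, 3 at EDN2, 1 at EDNRA, 1 at EDNRB and 2 at ECE1. Counted within the peaks themselves, the motif was in 6 of 92 siCTL (6.52%, 3.02 to 13.5%) and 8 of 40 siFra-1 peaks (20.0%, 10.5 to 34.8%). These are shares of few peaks in 1 library, and the difference between the lists was not tested.

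**Figure D4:**
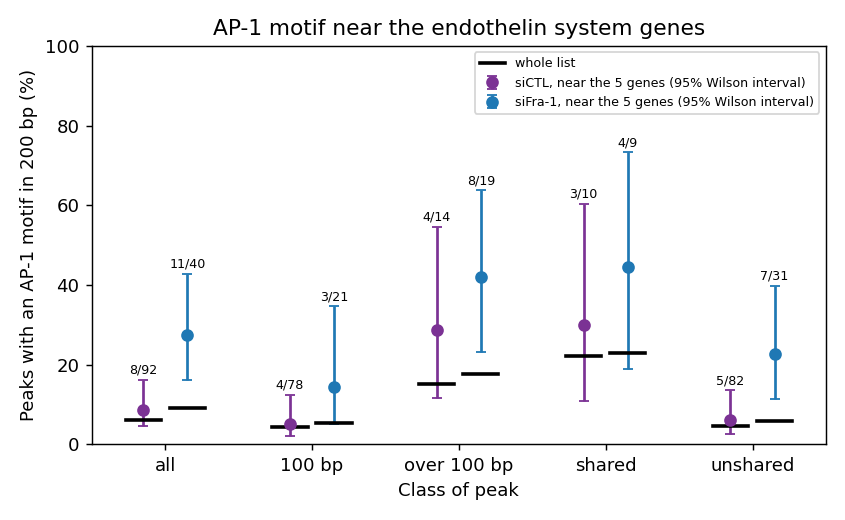
Percent of peaks near the 5 endothelin system genes with TGAGTCA in the 200 bp around the centre, by class of peak, for siCTL (purple) and siFra-1 (blue), with 95% Wilson intervals and the numbers of peaks; black bars give the same share of the whole list. Among all siFra-1 peaks 11 of 40 held the motif, beside 9.08% of the list.

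The same windows were searched for the other motifs. TEAD letters were found at 9 of 92 siCTL and 6 of 40 siFra-1 peaks (lists 13.2% and 17.4%), RUNX at 19 and 11 (15.6% and 17.6%), GATA at 13 and 6 (11.6% and 10.7%) and the hypoxia element at 13 and 5 (9.35% and 9.62%). RUNX letters were thus at as many siFra-1 peaks as the AP-1 motif, and the interval of 16.1 to 42.8% holds the RUNX share of the list. The CRE was at none of the 132 peaks, beside 0.141% and 0.158% of the lists.

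A list of 24 other genes of the pathway covered EDN3, related metallopeptidases, receptors of related sequence, and the G proteins, phospholipases, calcium channels, kinases and arrestins that act after the receptors. In all 24 the number was lower in siFra-1, beside 92.6% of protein-coding genes. Together they had a ratio of 0.466 (interval 0.393 to 0.551), and the median gene had 13.5 and 6 peaks. Counting peaks of 150 bp or more, 5 genes had more in siFra-1, 11 fewer and 8 as many, and 23.9% of protein-coding genes had more. Counting peaks of 250 bp or more, 13 genes had more in siFra-1, 5 fewer and 6 as many, and 30.7% of protein-coding genes had more.

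EDN3, another endothelin gene, had 9 siCTL and 6 siFra-1 peaks, the widest 150 and 350 bp. Among metallopeptidases, ECE2 had 33 and 11 peaks, with the widest 400 and 250 bp, and MMEL1 had 5 and 2, the widest 300 and 100 bp. ECEL1 had 12 and 3, the widest 100 and 250 bp. Of the receptors of related sequence, GPR37 had 6 and 2 peaks, the widest 150 and 250 bp, and GPR37L1 37 and 29, the widest 450 and 950 bp.

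Among G protein alpha subunits, GNA11 had 27 siCTL and 13 siFra-1 peaks and the same widest width, 500 bp. GNA12 had 12 and 6, and GNA13 33 and 16, with 400 bp the widest in both conditions at both genes. GNA13 had 1 siCTL and 5 siFra-1 peaks of 250 bp or more. Of the phospholipases C beta, which cut membrane lipid to release the calcium signal, PLCB3 had the largest difference in number of the list, 47 and 13 (ratio 0.277, interval 0.137 to 0.520), with the widest peak 250 and 100 bp. PLCB1 had 15 and 12 (widest 500 and 750 bp), PLCB2 12 and 9 (450 and 550 bp) and PLCB4 18 and 6 (200 and 650 bp).

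The inositol trisphosphate receptors, calcium channels of the endoplasmic reticulum, had 24 and 14 peaks at ITPR1 (widest 150 and 250 bp), 11 and 4 at ITPR2 (150 and 350 bp) and 39 and 16 at ITPR3 (600 and 400 bp). At the protein kinase C gene PRKCA the widest peak was 750 bp in siCTL and 1200 bp in siFra-1, with 25 and 16 peaks, and at PRKCE it was 250 and 100 bp with 8 and 4. The arrestin genes ARRB1 and ARRB2 had 32 and 13, and 20 and 6 peaks, with the widest 150 and 300 bp at the first and 300 and 200 bp at the second.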

How the data were processed

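p300/CBP was immunoprecipitated from siCTL and siFra-1 MDA-MB-231 cells and sequenced, 1 library per condition. An input sample was not analysed here. The authors pooled replicate immunoprecipitations before library preparation, binned the reads by 50 bp with PASHA, scaled the signal, subtracted background and called peaks above a threshold of 25 in the Integrated Genome Browser. Their methods name BWA-backtrack as aligner, whereas the submitters' processing notes name Bowtie2. The build is hg19. The deposited lists hold peak starts and ends only, so a difference in depth, scaling or enrichment between libraries cannot be told apart from one in occupancy. Starts were read as BED and raised by 1, and may be 1 bp off.

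Genes came from GENCODE 44 lifted to hg19. Peaks were assigned by their centre, and overlap meant at least 1 bp. Ratios have Clopper-Pearson and shares Wilson intervals at 95% (Python 3.11.15, scipy 1.17.1, numpy 2.4.6, matplotlib 3.10.9). On simulated data 7000 of 7000 overlaps and 900 of 900 motifs were recovered. Named were all EDN1 peaks, and at the other 4 genes the shared, the nearest and the peaks of at least 150 bp. Of the 24 pathway genes, those with a peak of at least 250 bp or the largest difference were named. Sequences were printed for shared sites, the siCTL peak with AP-1 near EDN1 and, chosen after values were seen, the EDN1 promoter peak and a wide EDNRA peak. That of the exonic EDN1 peak was not printed. The position, width and sequence of 1 shared site are not reported here, but it stays in the counts. The genes, lists and motifs were chosen with earlier results of these data known.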

Additional observations from a re-analysis of the deposited data

How the results depend on the processing

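No paired analysis was possible because each condition has 1 library and no replicate numbers, and for the same reason no replicate could be left out. Of 59 alternatives, 45 stayed within the interval of the reported value without reversing, 7 moved beyond it and 7 reversed. Of the 45, 3 had lost the direction, at equal numbers with 150 bp required (EDN2, ECE1 and the contact regions). Requiring 150 bp gave siFra-1 to siCTL ratios of 1.36 for all members, 1.17 at EDN1, 3 at EDNRA and 3 at EDNRB, and 0.765 for the pathway genes. Requiring 250 bp gave 4 for the members (1 and 4 peaks) and 1.52 for the pathway genes. The 50 kb window, chosen after seeing the data, gave 0.75 for the members and 1.4 at EDN1. At 150 bp or more, shared peaks were 50% of siCTL and 42.1% of siFra-1 peaks. In the whole lists sharing went from 17.8% at 150 bp to 85.0% at 250 bp or more in siCTL, and from 23.7% to 68.2% in siFra-1. With 1 kb counted as shared the shares were 23.9% and 50%, beside 16.8% and 34.6% of the whole lists. In 400 bp, AP-1 was at 16.3% of siCTL peaks, and the share of the whole list in 400 bp is not given here. At EDNRA a 100 kb window gave no ratio (0 and 1 peaks). Peak height and depth are unknown, so the lack of a peak does not show a lack of signal.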
